A study of Mus musculus with 8 samples.

Results

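The 9 genes Cldn3, Cldn4, Cldn6, Cldn7, Tjp1, Ocln, Cgn, Dsp and F11r encode parts of tight junctions and desmosomes. They were taken by gene symbol, through every probe set whose annotation names that symbol and no other. All 9 were on the array, with 17 probe sets of the 45037 tested and 9 genes of the 18193 that have such a probe set. RNA came from mouse embryonic stem (ES) cells of the strain label Oct4-Gip at passage 25, taken on day 4 of lipofection with an esiRNA, a pool of short double-stranded RNAs cut from a longer transcript. In 4 samples the esiRNA was directed against Ctr9, a subunit of the Paf1 complex of elongating RNA polymerase II, and in 4 control samples against luciferase. Each sample was hybridised to its own Affymetrix array, and values are log2 probe set signals.

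Tight junctions seal the space between neighbouring epithelial cells. Claudins are four-span membrane proteins that form the sealing strands, occludin and the JAM proteins lie beside them, and scaffolds such as ZO-1 and cingulin tie the strands to actin. Desmosomes are separate adhesive plaques in which desmosomal cadherins are joined through desmoplakin to keratin filaments. ES cells correspond to the inner cells of the blastocyst and grow as compact colonies held by E-cadherin, and the outer layer of the blastocyst, the trophectoderm, is the first embryonic epithelium with a full tight junction belt.

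The arrays were alike in scale, with upper quartiles from 8.10 to 8.15, and correlated at 0.997 to 0.998 within a group and at 0.992 to 0.994 between groups. The target itself was little lower: the brightest of the Ctr9 probe sets differed by -0.09 (SE 0.047; limma, Benjamini-Hochberg adjusted p = 0.209; exact two-sided permutation p = 0.0857, where 4 against 4 allows 0.0286 at the lowest), the next 2 fell by 0.15 and 0.18, and of 2 dim ones 1 rose by 0.29 and the other differed by 0.27 (limma adjusted p = 0.125). The groups below are named by the esiRNA on the label. Whether replicates were separate cultures is not on the labels; the p-values measure only how these samples vary, and part of that may be technical. In such bulk RNA, more cells of a type and more RNA per cell cannot be told apart.

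By the brightest probe set of each, 7 of the 9 junction genes were higher in the Ctr9 esiRNA arrays, none was lower and 2 did not pass. The 7 were the claudin genes Cldn3, Cldn4, Cldn6 and Cldn7, the scaffold genes Tjp1 and Cgn, and the JAM gene F11r. The membrane protein gene Ocln and the desmosomal plaque gene Dsp did not pass. Changes ran from 1.21-fold for F11r to 2.53-fold for Cldn6. Here a gene is called where limma's adjusted p over all probe sets is under 0.05. Over all 18193 genes 15.8% were called higher and 15.0% lower. The median difference of the 9 genes was 0.49 on the log2 scale, against 0.0036 over all genes. The treated and control values were fully apart in 7 of the 9 genes, which held for 36.6% of all genes. The brightest probe sets of the 9 lay at signal percentiles 70.6 to 94.1 of all probe sets, while the shares of all genes include dim ones. By probe set, 10 of 17 were called higher and none lower, against 11.8% and 13.1% of all probe sets. The 9 genes were chosen with earlier results of these data known, so these shares describe the genes and are no test of them.

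**Figure D1:**
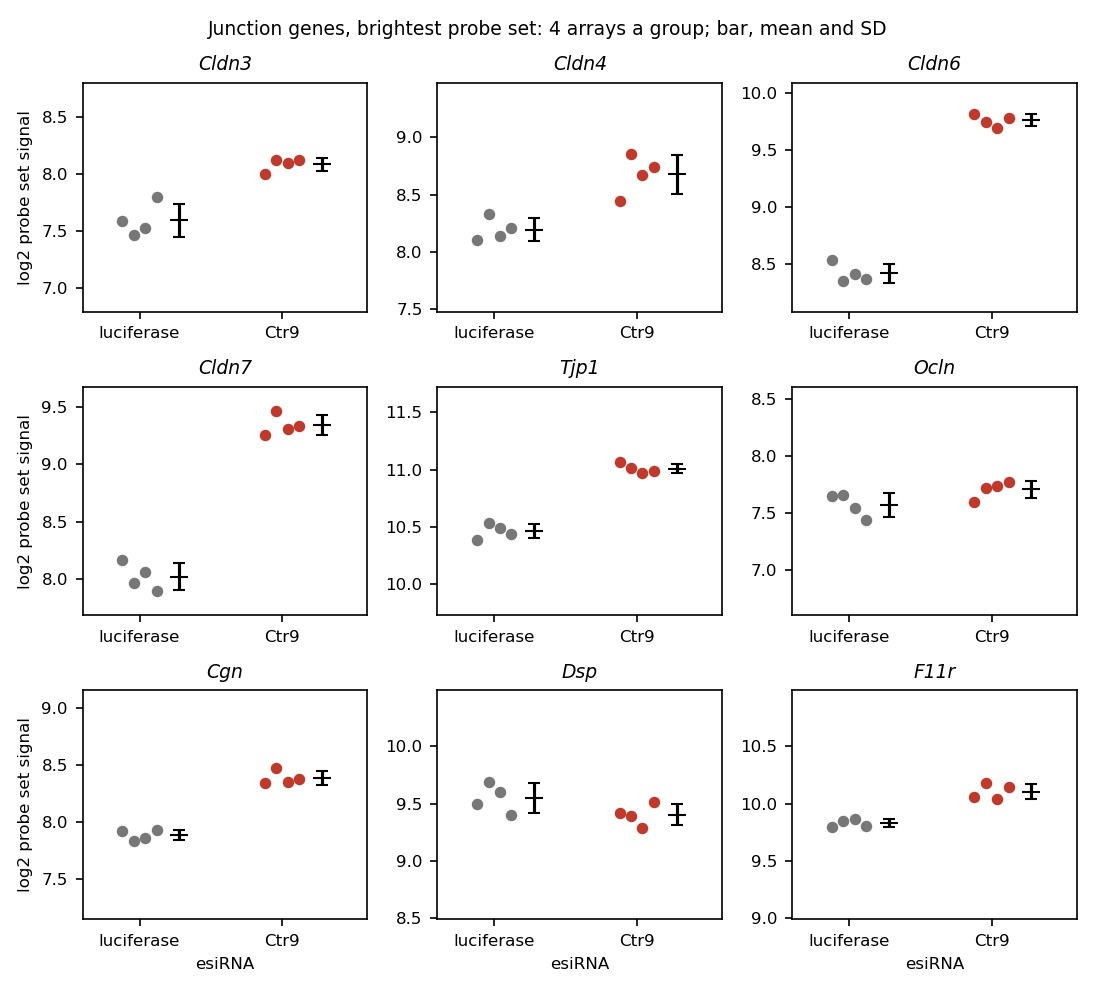
Log2 signal of the brightest probe set of each junction gene (vertical axis, spanning 2 log2 units in every panel) in the 4 luciferase esiRNA arrays (grey) and the 4 Ctr9 esiRNA arrays (red), with mean and SD beside them. The groups are apart in 7 panels and overlap for Ocln and Dsp.

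The claudin genes Cldn6 and Cldn7 had the largest differences of the 9. Cldn6, a claudin of early embryonic epithelia, read 8.54, 8.36, 8.42 and 8.38 in luciferase replicates 1 to 4 and 9.82, 9.74, 9.70 and 9.78 in Ctr9 esiRNA replicates 1 to 4. The lowest treated array thus lay more than 1 log2 unit above the highest control. Cldn6 rose by 1.34 (SE 0.055, 95% interval 1.22 to 1.46), or 2.53-fold (limma adjusted p = 2.14e-07). Its only probe set had SDs of 0.084 and 0.052 (n = 4 each).

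Cldn7, which is made along the lateral membranes of many epithelia, read 8.16, 7.96, 8.06 and 7.89 with luciferase esiRNA and 9.26, 9.47, 9.31 and 9.34 with Ctr9 esiRNA. Again no value of a group came near the other group. Cldn7 rose by 1.33 (SE 0.070, 95% interval 1.17 to 1.48), or 2.51-fold (limma adjusted p = 9.51e-07), on its only probe set. The difference between the changes of Cldn6 and Cldn7, or of any other pair of these genes, was not tested.

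Cldn3 and Cldn4 encode claudins that serve as receptors for an enterotoxin of Clostridium, and they lie next to each other in the RefSeq gene table. Cldn4 read 8.10, 8.33, 8.14 and 8.21 in the control arrays and 8.45, 8.85, 8.67 and 8.74 in the treated arrays. The lowest treated value, that of replicate 1, lay just above the highest control, that of replicate 2. Cldn4 rose by 0.48 (SE 0.086, 95% interval 0.29 to 0.68), a fold change between 1.22 and 1.598 by that interval (limma adjusted p = 0.00221).

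Cldn3 was read by 4 probe sets, and all 4 rose. On the brightest the control arrays read 7.59, 7.47, 7.53 and 7.80 and the treated arrays 7.998, 8.12, 8.09 and 8.12, a rise of 0.49 (SE 0.072, 95% interval 0.33 to 0.65; limma adjusted p = 0.000708). The other 3 rose by 0.87 (SE 0.081), 0.85 (SE 0.068) and 0.72 (SE 0.079), so the brightest probe set gave the smallest of the 4 differences, and the groups overlapped on none of them. The mean of the 4 probe sets rose by 0.73 (SE 0.041; limma adjusted p = 6.71e-07 over genes). These probe sets carry the suffixes a or x, by which the manufacturer marks probes shared by variants of a gene or open to cross-hybridisation. The direction was the same on all 4, and the size ranged from 0.49 to 0.87.

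For the claudin genes, which rose together, the bases before an annotated start are shown where they hold an E-box. The windows without it, of Cldn3 and of another Cldn7 start, are not printed. Those shown are 250 bases each from RefSeq, build GRCm38.p6, read 5′ to 3′ along the gene's strand. In capitals is the E-box CAGGTG or its reverse complement CACCTG. This E-box is known from the promoters of E-cadherin and other epithelial genes as a site of the Snail and Zeb repressors.

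Cldn6 (chr17:23679115-23679364, plus strand): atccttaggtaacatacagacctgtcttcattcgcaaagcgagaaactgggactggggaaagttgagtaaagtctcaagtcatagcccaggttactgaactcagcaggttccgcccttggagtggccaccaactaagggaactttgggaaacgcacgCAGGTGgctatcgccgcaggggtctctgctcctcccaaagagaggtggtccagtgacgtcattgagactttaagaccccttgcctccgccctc
Cldn7 (chr11:69965171-69965420, plus strand): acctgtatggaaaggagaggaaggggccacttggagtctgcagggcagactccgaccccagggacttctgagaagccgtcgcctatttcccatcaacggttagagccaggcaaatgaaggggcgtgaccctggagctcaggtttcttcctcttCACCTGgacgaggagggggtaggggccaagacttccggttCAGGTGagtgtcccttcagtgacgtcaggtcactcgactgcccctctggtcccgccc
Cldn4 (chr5:134946935-134947184, minus strand): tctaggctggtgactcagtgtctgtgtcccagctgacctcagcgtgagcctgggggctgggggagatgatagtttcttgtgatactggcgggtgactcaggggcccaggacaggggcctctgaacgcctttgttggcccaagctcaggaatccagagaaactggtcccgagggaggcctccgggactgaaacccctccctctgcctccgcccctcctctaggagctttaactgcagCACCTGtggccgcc

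In these windows the E-box begins 93 bases before the Cldn6 start, 97 and 57 bases before the Cldn7 start shown, and 14 bases before the Cldn4 start. Cldn7 has another annotated start, whose window holds no match, and that of Cldn3 (chr5:134985964-134986213, plus strand) holds none either. Over all 9 genes there were 11 such windows, since Cldn7 and Ocln have 2 each. Of the 11, 5 held the motif, against 17.2% of 32851 windows of the same length across the genome. The GC content of the 11 ran from 51.2% to 72.4%, against a median of 52.4% over all windows. The counts were not adjusted for GC content. F11r and an Ocln start account for the other matches, and the windows of Tjp1, Cgn and Dsp hold none. Matches occur both in genes that rose and in Ocln, which did not pass. The grainyhead motif AACCNGTT, searched on both strands, was in 1 of the 11 windows, that of Cgn, and in 1.79% of all windows. A match is only a stretch of letters, and neither binding nor chromatin was measured here.

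Tjp1 and Cgn encode the cytoplasmic side of the tight junction. Tjp1, the gene of the scaffold ZO-1, which binds claudin tails and actin, read 10.39, 10.54, 10.49 and 10.44 in the control arrays and 11.06, 11.01, 10.97 and 10.99 in the treated arrays. All treated arrays were above all controls, with SDs of 0.064 and 0.039 (n = 4 each). Tjp1 rose by 0.55 (SE 0.049, 95% interval 0.44 to 0.66), or 1.46-fold (limma adjusted p = 2.64e-05).

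Cgn encodes cingulin, which links ZO-1 to myosin. Its brighter probe set read 7.92, 7.83, 7.86 and 7.93 with luciferase esiRNA and 8.34, 8.47, 8.35 and 8.38 with Ctr9 esiRNA, again without overlap, a rise of 0.50 (SE 0.049, 95% interval 0.39 to 0.61; limma adjusted p = 4.89e-05). Its other probe set was dim, at 4.38 ± 0.109 and 4.35 ± 0.176 (SD, n = 4 each), and differed by -0.03 (SE 0.0895; limma adjusted p = 0.876). With the mean of both probe sets the rise of Cgn was 0.24 (SE 0.054; limma adjusted p = 0.00694 over genes), less than that of the brighter one alone.

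F11r encodes JAM-A, an immunoglobulin-like adhesion protein that helps to place polarity proteins at young tight junctions. It read 9.80, 9.85, 9.86 and 9.80 in the control arrays and 10.06, 10.18, 10.04 and 10.14 in the treated arrays. The groups did not overlap, and F11r rose by 0.28 (SE 0.049, 95% interval 0.17 to 0.39; limma adjusted p = 0.00223). A second, dim F11r probe set differed by 0.09 (SE 0.043; limma adjusted p = 0.179); its values also did not overlap, from 5.37 to 5.45 in the controls and from 5.45 to 5.53 in the treated arrays, and the nearest values of the groups were almost equal. The mean of both F11r probe sets rose by 0.18 (limma adjusted p = 0.00221 over genes).

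Ocln and Dsp did not pass on any probe set. Ocln encodes occludin, a membrane protein of the tight junction. On the brighter probe set it read 7.65, 7.66, 7.55 and 7.44 in the control arrays and 7.60, 7.72, 7.74 and 7.78 in the treated arrays, where treated replicate 1 fell among the controls. The difference was 0.13 (SE 0.063, 95% interval -0.0061 to 0.28; limma adjusted p = 0.160). The other Ocln probe set pointed the other way, at -0.11 (SE 0.048, 95% interval -0.22 to -0.0053; limma adjusted p = 0.124). An Ocln rise above 1.21-fold lies outside the interval of either probe set.

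Dsp encodes desmoplakin, the plaque protein that anchors keratin filaments at the desmosome. Its brightest probe set read 9.49, 9.69, 9.60 and 9.40 in the control arrays and 9.42, 9.39, 9.29 and 9.51 in the treated arrays, so that the groups overlapped. The difference was -0.15 (SE 0.073, 95% interval -0.31 to 0.015; limma adjusted p = 0.183), with 0.08 (SE 0.080; limma adjusted p = 0.530) and -0.20 (SE 0.070; limma adjusted p = 0.0676) on the other 2 Dsp probe sets. The largest rise within these intervals is 1.20-fold. The keratin genes whose filaments desmoplakin anchors were much higher in the same arrays, Krt8 by 2.61 (SE 0.071) and Krt18 by 2.39 (SE 0.045).

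**Figure D2:**
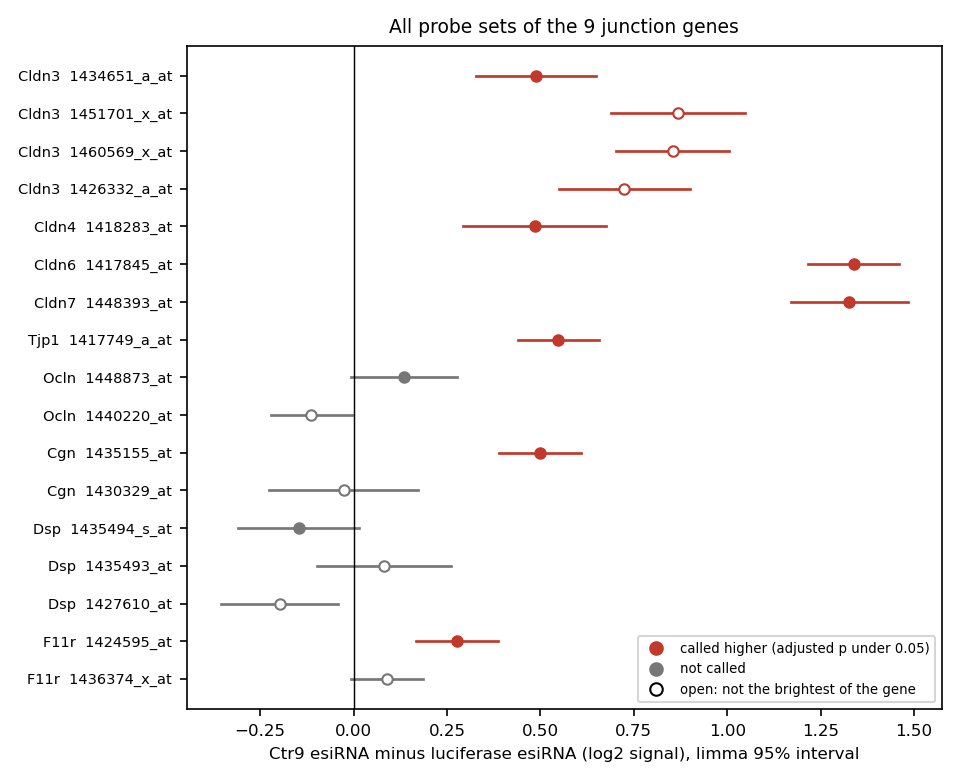
Difference in log2 signal, Ctr9 esiRNA minus luciferase esiRNA, with limma's 95% interval, for all 17 probe sets of the 9 junction genes (horizontal axis), red where called higher and grey where not called; filled points are the brightest probe set of a gene. Cldn6 and Cldn7 lie near 1.33, the 4 Cldn3 probe sets spread from 0.49 to 0.87, and those of Ocln and Dsp lie on both sides of 0.

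The other genes of the tight junction and desmosome, from 4 lists with 55 measured genes of 64 listed, went in both directions. By brightest probe set, 20 were higher, 4 were lower and 31 did not pass, at a median difference of 0.063. Against the 15.8% and 15.0% of all genes, that is a larger share of higher and a smaller share of lower genes, which was not tested as a list. The lists were chosen with earlier results of these data known, so the shares only describe them. The 4 lower genes were Jam2, Ildr1, Dsg2 and Tjp3; Tjp3, a further ZO scaffold gene at -0.25 (SE 0.062; limma adjusted p = 0.0127), is named after its value was seen, and its call ended without luciferase arrays 1 and 2 (0.113).

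Of 16 other claudin genes measured, 4 were higher and none lower, at a median of 0.023. In the control arrays 14 of the 16 read below the array median. For Cldn12 the rise was 0.42 (SE 0.056; limma adjusted p = 0.000351) on the brighter of its probe sets and 0.56 on the other. Cldn9, the neighbour of Cldn6 in the gene table, read 5.61, 5.64, 5.31 and 5.24 in the control arrays and 6.19, 6.26, 6.33 and 6.71 in the treated arrays, apart although dim. Cldn9 rose by 0.92 (SE 0.126; limma adjusted p = 0.000431), while its second, equally dim probe set differed by 0.14 (limma adjusted p = 0.0915); the mean of both rose by 0.53. Cldn1 (0.35, SE 0.090) and Cldn10 (0.25, SE 0.071) were called at signals under 5, and the mean of the Cldn1 probe sets was 0.20 higher. The Cldn1 call ended without Ctr9 esiRNA replicate 1 (limma adjusted p = 0.0504) or luciferase arrays 3 and 4 (0.130), and the Cldn10 call without luciferase replicate 2 (0.0553) or 4 (0.0550) or Ctr9 esiRNA replicate 1 (0.0678) or 3 (0.0573), among others.

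Of 8 genes listed as other membrane proteins of the tight junction, 5 rose and 1 fell, at a median of 0.38. Marveld2 encodes tricellulin, a relative of occludin at the corners where cells meet, and read 5.77, 5.61, 5.74 and 5.73 in the control arrays and 6.94, 7.02, 6.93 and 7.20 in the treated arrays. With no overlap, Marveld2 rose by 1.31 (SE 0.068), or 2.48-fold (limma adjusted p = 8.70e-07). The adhesion receptor gene Cxadr was higher by 0.51 (SE 0.052; limma adjusted p = 6.36e-05). A relative of Marveld2, Marveld3, was higher by 0.58 (SE 0.078; limma adjusted p = 0.000381). The 2 dimmer Marveld3 probe sets did not pass. With all probe sets of a gene averaged, the rise was 0.29 for Cxadr and 0.28 for Marveld3.

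Jam2, the JAM-B gene and thus a relative of F11r, went the other way. It read 11.54, 11.53, 11.54 and 11.61 with luciferase esiRNA and 10.25, 10.38, 10.50 and 10.40 with Ctr9 esiRNA, so that every treated array was about 1 log2 unit or more below every control. Jam2 fell by 1.17 (SE 0.058; limma adjusted p = 6.26e-07), and its 4 other probe sets fell by 1.16 to 1.42. Jam3, named after its values were seen, rose by 0.38 (SE 0.054) on its brighter probe set, while its dimmer one differed by -0.22 (SE 0.083; limma adjusted p = 0.0821). Averaged over both probe sets, Jam3 did not pass, at 0.080 (limma adjusted p = 0.332 over genes).

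The list of 17 scaffold and polarity genes also holds genes that are neither, Lsr and Ildr1 among them. Of the 17, 7 rose and 2 fell, at a median of 0.10. The multi-PDZ scaffold genes Mpdz (0.95, SE 0.060; limma adjusted p = 3.05e-06) and Patj (0.63, SE 0.063; limma adjusted p = 5.47e-05) rose. For Mpdz a second probe set rose by 0.56 and 2 dim ones did not pass, at -0.02 and 0.08, and the mean of the 4 rose by 0.39. Lsr and Ildr1 encode angulins, which recruit tricellulin to cell corners, and they moved apart. Lsr rose by 0.64 (SE 0.064; limma adjusted p = 5.70e-05), and Ildr1 fell by 0.72 (SE 0.073; limma adjusted p = 6.37e-05), from between 7.04 and 7.28 to between 6.25 and 6.50. A dim second Lsr probe set did not pass, and the mean of both rose by 0.33.

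Of 14 other desmosome genes measured, 4 rose, 1 fell and 9 did not pass, at a median of 0.059. Dsg2, a desmosomal cadherin gene, read 10.18, 10.35, 10.16 and 10.10 in the control arrays and 9.79, 9.76, 9.78 and 9.87 in the treated arrays. It fell by 0.40 (SE 0.060; limma adjusted p = 0.000797) without overlap, and 4 of its 5 other probe sets fell too. Dsc2, the partner cadherin gene, rose by 0.39 (SE 0.090; limma adjusted p = 0.0103). The plaque gene Ppl (0.24, SE 0.047) and the membrane protein gene Perp (0.20, SE 0.049) rose as well, all 3 by less than 1.31-fold. The call of Dsc2 ended without luciferase arrays 3 and 4 (limma adjusted p = 0.0641) and that of Perp without luciferase arrays 1 and 2 (0.0973).

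**Figure D3:**
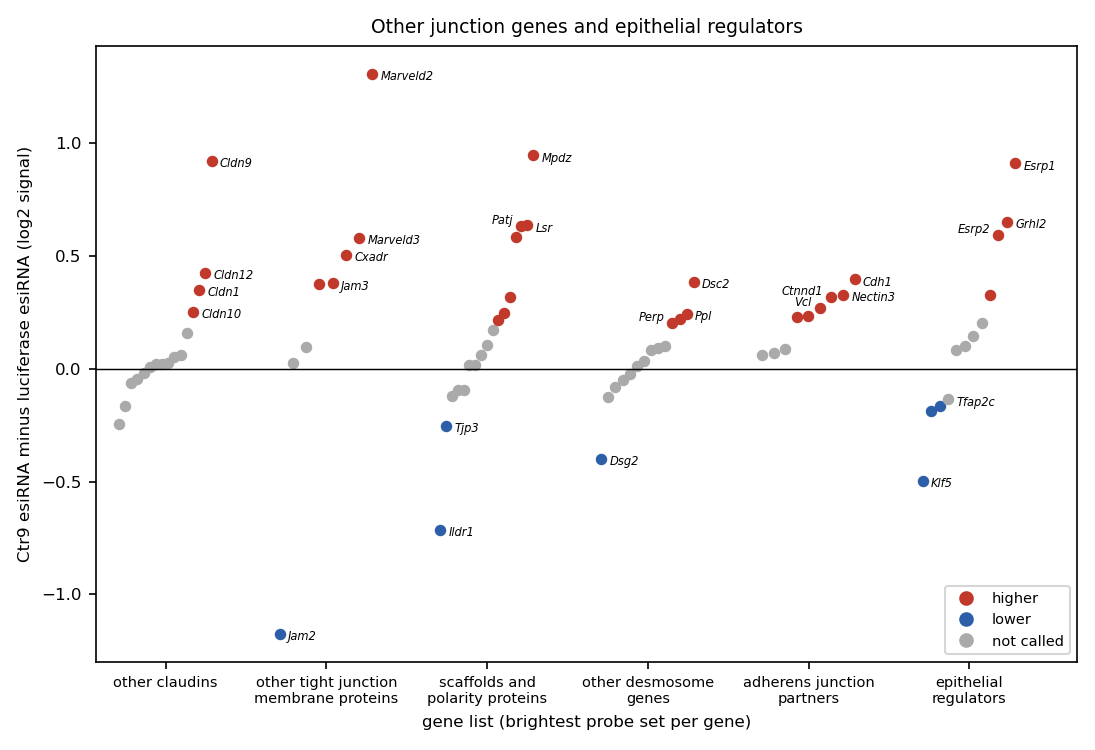
Difference in log2 signal, Ctr9 esiRNA minus luciferase esiRNA, of the brightest probe set of each other junction gene or epithelial regulator (points, 6 lists along the horizontal axis), red where called higher, blue where called lower and grey where not called. Marveld2 is the highest point at 1.31 and Jam2 the lowest at -1.17.

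Adherens junctions are the cadherin-based contacts beside which tight junctions assemble, and 6 of their 9 listed genes rose with none lower, at a median of 0.23. For this list and those below, the shares over all genes are 15.8% higher and 15.0% lower, and no list was tested. Cdh1, the E-cadherin gene, was higher by 0.40 (SE 0.049; limma adjusted p = 0.000215). Smaller rises were those of Ctnnd1 (0.32), Nectin3 (0.33) and Vcl (0.27). Of the 6 Nectin3 probe sets the 3 brightest rose and the dimmest fell by 0.23 (limma adjusted p = 0.0485), and their mean rose by 0.107 (limma adjusted p = 0.0492 over genes). The mean over the Ctnnd1 probe sets rose by 0.19. For Vcl the dimmer probe set did not pass, at 0.10 (limma adjusted p = 0.376), and the mean of both rose by 0.19. Among 12 regulators of epithelial transcription and splicing, 4 rose and 3 fell, at a median of 0.12. The splicing factor gene Esrp1 (0.91, SE 0.050; limma adjusted p = 1.22e-06), its relative Esrp2 (0.59, SE 0.074) and the grainyhead factor gene Grhl2 (0.65, SE 0.055; limma adjusted p = 1.98e-05) rose, while Klf5 fell by 0.50 (SE 0.054). The mean of the 4 Grhl2 probe sets rose by 0.33. The other grainyhead genes of the list, named after their values were seen, moved apart. Grhl1 rose by 0.33 (SE 0.046), and Grhl3 fell by 0.19 (SE 0.052, limma adjusted p = 0.0264). The dimmer Esrp2 probe set did not pass, at 0.23 (limma adjusted p = 0.192), and the mean of both rose by 0.41.

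Some markers of other cell types rose in the same arrays as the junction genes, while others in the same lists did not. Of 8 trophectoderm markers, 6 rose, among them Krt8, Krt18, Krt19 and Cdx2, and their mean level ran from 6.75 to 6.998 in the control arrays and from 8.02 to 8.12 in the treated arrays. The defining transcription factor genes differed among themselves: Cdx2 rose by 1.39 (SE 0.094), Gata3, below the array median with luciferase esiRNA, by 1.18 (SE 0.127), and Eomes by 0.28 (SE 0.080; limma adjusted p = 0.0255), with overlapping groups. The Eomes call ended when any array but luciferase replicate 2 or Ctr9 esiRNA replicate 3 was left out (limma adjusted p = 0.0508 to 0.0739). Elf5, also below the array median, differed by 0.049 (SE 0.086). Tfap2c differed by -0.13 (SE 0.088; limma adjusted p = 0.319) on its brightest probe set and fell by 0.50 and 0.37 on its other 2. These 4 genes beside Cdx2 are named after their values were seen. Of 12 fibroblast markers for feeder cells, 4 rose and none fell, at mean levels of 5.27 to 5.37 in the control arrays and 5.47 to 5.51 in the treated arrays. Those that rose were Col5a2 (0.74, SE 0.093; limma adjusted p = 0.000251), Dcn (0.57, SE 0.123; limma adjusted p = 0.00692), Mmp2 (0.42, SE 0.047; limma adjusted p = 0.000109) and Col1a2 (0.24, SE 0.072; limma adjusted p = 0.0335). Mmp2 was well above the array median, at 7.77 and 8.19, the Dcn rise was 0.33 over its probe sets, and the Col1a2 call ended in 10 of 19 alternatives. Below the array median with luciferase esiRNA were 8 of the 12, among them Col5a2, Dcn and the main collagen genes Col1a1 (0.049) and Col3a1 (-0.012); the last 2 did not pass and are named after their values were seen. The part of either cell type in the rise of the junction genes was not tested. None of 8 ES cell markers read below the array median with luciferase esiRNA, against 2 of the 8 trophectoderm markers. Lying above that median does not by itself identify a cell type. Of these 8, 4 fell, at mean levels of 13.08 to 13.13 and 12.78 to 12.81. They were Esrrb (by 1.10, SE 0.069), Zfp42 (by 0.46, SE 0.052), Nanog (by 0.44, SE 0.044) and Pou5f1 (by 0.20, SE 0.042), the last of which lost its call without luciferase arrays 3 and 4 (limma adjusted p = 0.0508).

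Among 18009 other genes with a value in every array, the profiles most like the mean of the 9 junction genes over the 8 arrays were those of Tmem98 (Pearson r = 0.9993), Krt19 (r = 0.9990) and Psmb8 (r = 0.9980). These 8 points share the 2 treatment groups, so the values say little beyond the group difference, which was 0.79 for Tmem98, 1.63 for Krt19 and 1.78 for Psmb8 on the log2 scale.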

How the data were processed

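The 8 samples are 4 luciferase and 4 Ctr9 esiRNA arrays. The authors deposited log2 signals, 1 per probe set and array. The submitters' processing notes name GCOS 1.4 and RMA without settings. RMA equalises the arrays' distributions and hides any shift common to all genes. Values were used as deposited, without a filter. The 64 control probe sets were left out. Of the rest, 34945 have 1 gene symbol in the platform annotation and 932 several; symbols were updated by Entrez number from RefSeq's table for GRCm38.p6, where 34741 of the former were found. Each gene was represented by the brightest of its 1-symbol probe sets, averaged across arrays. No junction gene had an empty value.

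Groups were compared with limma 3.58.1 in R 4.3.3 (lmFit, eBayes), two-sided, with Benjamini-Hochberg adjustment over 45037 probe sets, threshold 0.05; SE and intervals are limma's. Ctr9 also has an exact permutation test. The script was tested on simulated data.

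The junction genes and all gene lists were chosen with earlier results of these data known. Named are the 9 genes, up to 4 called genes with the smallest adjusted p per list, a gene called alone in its direction, the 3 most similar profiles and Ctr9. A further 8 list genes were named after their values were seen (Jam3, Tjp3, Gata3, Eomes, Elf5, Tfap2c, Col1a1 and Col3a1). So were Grhl1 and Grhl3, which were not followed through the alternatives. Of the listed genes, Pals1 was found as Mpp5; those without a 1-symbol probe set, such as Cldn17 and Dsg3, were left out. Alternatives were a filter on dim probe sets, 3 scalings, other limma settings, the replicate number as a block, fewer arrays, a stricter threshold, averaging all probe sets of each gene, and leaving out probe sets with shared probes. Same-numbered samples did not deviate together (correlations of -0.077 to 0.062), so the numbers were not taken as pairs. Promoters are RefSeq's. Figures were drawn with matplotlib 3.10.9.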

Additional observations from a re-analysis of the deposited data

Results flagged for a closer look

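Among 122 groups of 4 values, 7 held an array apart from the others by Dixon's 95% criterion, where chance gives about 1 in 20. The groups covered the probe sets of the 9 junction genes and the brightest of 44 named list genes, without Grhl1 and Grhl3. For the third brightest Cldn3 probe set, Ctr9 esiRNA replicate 2 read 8.10 against 7.92 to 7.93 in the others. In the same group replicate 4 was low for Patj (7.82) and for Perp (9.54), and replicate 1 was low for Ildr1 (6.25) and high for Col1a2 (6.56). In the luciferase group replicate 2 was high for Eomes (6.86) and replicate 4 was low for Elf5 (3.94). The calls of Cldn3 (brightest probe set), Patj and Ildr1 held without any 1 array, and that of Col1a2 ended without Ctr9 esiRNA replicate 1 (limma adjusted p = 0.0587).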

How the results depend on the processing

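The calls of all 9 junction genes, 7 higher and 2 not past the test, were the same under every alternative that could be run for them (19 or 20 each), the replicate block included (7 higher, 0 lower; 10 probe sets higher). The Cldn3 rise ran from 0.42 to 0.73, that of Cgn from 0.24 to 0.52 and that of F11r from 0.18 to 0.30, the ends for Cldn3 (high), Cgn and F11r (low) coming from the mean of the probe sets. Without probe sets of the suffixes x, s and a, Cldn3 and Tjp1 have none left; 5 member probe sets of 10 and 5 genes of 7 were then higher. Member probe sets called lower went from 0 to 2 among probe sets above the median signal (Ocln, limma adjusted p = 0.0457; Dsp, 0.0309) and ranged from 0 to 1 when each array was left out in turn, the Dsp call appearing without Ctr9 esiRNA replicate 2 (0.0179). Both are dimmer probe sets of their genes. Other junction genes called lower went from 4 to 7 with the trended robust prior and to 7 with all probe sets of a gene averaged. At a threshold of 0.01, 3389 probe sets were higher and 3611 lower. With all probe sets of a gene averaged, the calls of Jam3 and Col1a2 ended and Tfap2c was called lower (-0.33, limma adjusted p = 0.000767). The number of arrays limits the precision; limma's SE ran from 0.0433 to 0.0895 over the 17 probe sets.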
